A study of Homo sapiens with 15 samples.

Results

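HBP1, the genes of the retinoblastoma family and the genes of the cyclin-dependent kinase (CDK) inhibitors make up a group of 10 among the 23368 genes of the expression table, chosen by their symbols alone: HBP1, RB1, RBL1, RBL2, CDKN1A, CDKN1B, CDKN1C, CDKN2A, CDKN2B and CDKN2C. Of the 10, 8 passed the filter for testing, which asks that the mean over the libraries of every clone reach 10 normalized counts, and CDKN2A and CDKN2B had no read in any library.

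The study asked how the transcriptome responds to RBM47, an RNA-binding protein of breast cancer cells, by adding doxycycline at 0, 1, 2.5, 5 and 25 ng/ml to cells that carry an inducible RBM47 transgene. RNA-seq (polyA-selected) was run on 15 libraries, 1 per clone and dose. WT6 and WT10 carry wild type RBM47 and MUT3 carries RBM47-I281fs, a frameshift mutant. The study found little protein from this mutant in non-clonal cells although its mRNA was abundant, and takes the mutant protein to be unstable and inactive. Protein is not measured in these libraries. Every library, untreated ones included, comes from transduced cells, and every clone received the same doses. The labels name MDA231, a triple negative breast cancer line, for every clone, whereas the methods derive WT10 and MUT3 from the 231-BrM2 and WT6 from the CN34-BrM2 brain metastatic derivative. Each construct is represented by single-cell-derived clones, WT6 may have another parental line than MUT3, and no untransduced cells were sequenced, so a property of a clone cannot be told apart from an effect of its construct.

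HBP1 is a transcription factor of the HMG box family known as a brake on the cell cycle and as a partner of the retinoblastoma proteins. RB1 and its relatives p107 (RBL1) and p130 (RBL2) bind E2F transcription factors and keep E2F target genes low until cyclin-CDK complexes phosphorylate them. CDK inhibitors come in 2 families: the CIP/KIP proteins p21 (CDKN1A), p27 (CDKN1B) and p57 (CDKN1C), which act on many cyclin-CDK complexes, and the INK4 proteins p16 (from CDKN2A, which also encodes ARF), p15 (CDKN2B) and p18 (CDKN2C), which bind CDK4 and CDK6.

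The libraries held 14955172 to 44771871 reads on genes (median 18152381), and WT10 at 5 ng/ml was the deepest. RBM47 mRNA rose from 258 normalized counts to 10425 in WT6, from 168 to 19877 in WT10 and from 73.8 to 22084 in MUT3. In WT6, however, it was lower at 5 ng/ml (3966) than at 2.5 ng/ml (8094). The WT6 libraries at 5 and 25 ng/ml stood apart: against untreated WT6, the fifth of the tested genes with the shortest mRNAs had a median log2 change of 0.57 and 0.56, and the fifth with the longest -0.41 and -0.46, whereas in each of the other 10 treated libraries both medians lay within 0.1 of 0. The line markers VIM, CD44, KRT8 and KRT18 had at least 7100 normalized counts in every library, and with dose the keratin genes KRT8 and KRT18 rose in both wild type clones and CD44 fell in WT6. Of 9 markers of other cell types, CD3E was at 0 throughout, and the sum of the list ran from 274 to 809.7 in WT6, from 21.5 to 73.6 in WT10 and from 21.3 to 65.5 in MUT3. In WT6 it consisted mostly of DCN, a matrix proteoglycan gene of fibroblasts, which went from 190 in the untreated to 735 in the 25 ng/ml library. The part of these differences in the results below was not tested, and fewer expressing cells and less RNA per cell cannot be told apart in bulk libraries.

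Dose responses were measured as a slope, the change in log2(normalized count + 1) per unit of log2(dose + 1), in one limma fit over all libraries. In WT6, 3 of the 8 tested members rose (HBP1, CDKN1A and CDKN1C) and 3 fell (RB1, RBL1 and CDKN2C), beside 29.2% of all tested genes that rose and 28.3% that fell. In WT10, 2 of 8 rose (HBP1 and CDKN1A) and 1 fell (CDKN2C), beside 10.2% and 9.83% of all genes. In MUT3, 0 of 8 passed, as did 0.00% of all genes, and edgeR on the recovered reads also called 0 of the 8. At an unadjusted p under 0.05, 1 member of the 8, CDKN1A, had a slope in MUT3, beside 295 of the 12644 genes. Counts of 3 in each direction in WT6 are within 1 gene of the shares of the whole table. Averaged over WT6 and WT10, the slope differed from that of MUT3 for 5 of 8 members, beside 24.6% of all genes. Without WT6 at 5 and 25 ng/ml, 0 of 8 passed in WT6, 5 in WT10 and 2, HBP1 and CDKN2C, for the wild type mean against MUT3. Of all 12644 genes, 182, 4915 and 1595 passed in that fit, in the same order. Without the 25 ng/ml libraries of every clone, 4 of 8 passed in WT6, beside 4688 of all 12644 genes, and 0 in WT10, beside 17. The WT10 slopes were then 0.21 ± 0.052 for HBP1 (limma, adjusted p = 0.085), 0.17 ± 0.046 for CDKN1A (limma, adjusted p = 0.104) and -0.12 ± 0.050 for CDKN2C (limma, adjusted p = 0.242).

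HBP1 lies on chromosome 7 (hg19, chr7:106809406-106842967, plus strand), where COG5 runs across it in the other orientation. Normalized counts of HBP1 in WT6 cells were 225, 265, 348, 433 and 675 at 0, 1, 2.5, 5 and 25 ng/ml. In WT10 cells they were 419.8, 412, 508, 600.4 and 810.3. In MUT3 cells they were 476, 531, 512, 504 and 527. HBP1 thus rose at every step in WT6 and at every step from 1 ng/ml on in WT10, and the MUT3 values fell inside the range spanned by WT10. At 25 ng/ml the count was 3.01 times the untreated one in WT6, 1.93 times in WT10 and 1.11 times in MUT3. The slope was 0.35 ± 0.029 (SE) in WT6 (limma, adjusted p = 2.6e-06), 0.22 ± 0.028 in WT10 (limma, adjusted p = 0.000115) and 0.020 ± 0.028 in MUT3. The wild type mean exceeded the MUT3 slope by 0.26 ± 0.035 (limma, adjusted p = 0.000453), and WT10 alone exceeded it by 0.20 ± 0.039 (limma, adjusted p = 0.0116). HBP1 is one of the genes the study listed as rising with RBM47 in these same samples, so its rise is not independent evidence of a response. The study also names HBP1 among the genes bound by RBM47, and binding is not measured in these libraries. Removing trends with transcript length and GC content left slopes of 0.33 in WT6 and 0.19 in WT10, and without WT6 at 5 and 25 ng/ml the WT6 slope was 0.35 ± 0.087 (limma, adjusted p = 0.0565).

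The upstream bases of the members were read from RefSeq (GRCh38.p14), which gave 14 transcription starts for 9 of the 10 genes, CDKN1C having none. The 250 bases before each start were searched on both strands for 5 motifs: the E2F site forms TTTGGCGC, TTTCGCGC and TTTCCCGC, the cell cycle element TTTGAA and the forkhead motif GTAAACA. No 2 of these motifs overlapped in the members, and 2 of the 14 starts held any of them, none of them TTTGAA. Of the 35116 starts in the reference, 13.3% held TTTGAA, 2.98% the forkhead motif and 2.32% any of the 3 E2F forms. HBP1, a gene that forkhead factors of the FOXO family are known to regulate, had the forkhead motif 173 bases before its upstream start, on the strand of the gene, as had 2.98% of the 35116 starts in the table on either strand. The stretch is shown because HBP1 is the member with the largest rise in WT6, with the motif in capitals (chr7:107168818-107168847, plus strand).
HBP1: ccatcttctccaGTAAACAcaacacaaaag
RBL1, a gene known to be under E2F control itself, had 2 E2F forms, TTTCGCGC 26 bases and TTTGGCGC 16 bases before its start, which 0.439% and 0.550% of all starts held. The last 30 bases before that start are shown because RBL1 is at once a partner and a target of E2F, with both forms in capitals (chr20:37095998-37096027, minus strand, written 5′ to 3′ along the gene).
RBL1: agatTTTCGCGCgcTTTGGCGCaggtggtt
A match describes letters in these windows, and binding was not measured.

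RB1 (hg19, chr13:48877880-49173572, plus strand), the retinoblastoma gene, fell in WT6. Its normalized counts there were 1488, 1358, 1326, 976 and 497 with increasing dose. In WT10 they were 1603, 1702, 1777, 1752 and 1155. In MUT3 they were 997, 1041, 1144, 1069 and 997. The decline in WT6 proceeded at every step and brought the 25 ng/ml library below every MUT3 library, whereas in WT10 the 25 ng/ml library alone lay below the untreated one and remained above all of MUT3. The ratio of 25 ng/ml to untreated was 0.334 in WT6, 0.721 in WT10 and 1.00 in MUT3. The slope was -0.34 ± 0.046 in WT6 (limma, adjusted p = 4.77e-05), -0.10 ± 0.043 in WT10 (limma, adjusted p = 0.113) and -0.0036 ± 0.045 in MUT3. The wild type mean lay 0.22 below MUT3 (difference -0.22 ± 0.055, limma, adjusted p = 0.0128), and the WT6 slope lay below that of WT10 (difference -0.24 ± 0.063, limma, adjusted p = 0.0285).

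The RB1 values moved with the WT6 libraries named above. RB1 has a transcript of 4768 bases, longer than 68.3% of tested genes. Without WT6 at 5 and 25 ng/ml its WT6 slope was -0.094 ± 0.089 (limma, adjusted p = 0.662), and its difference from WT10 was 0.0056 (limma, adjusted p = 0.995). With length and GC trends removed and all libraries kept, the slopes were -0.27 in WT6 and -0.12 in WT10 (limma, adjusted p = 0.00163 for WT10), and RB1 thus passed in both wild type clones. In that fit 4297 of 12113 genes passed in WT10, against 2527 of 12644 with the trends kept.

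RBL1 (hg19, chr20:35624752-35724400, minus strand), which encodes p107, also fell in WT6. Its normalized counts there were 1097, 1089, 1017, 470.0 and 412. In WT10 they were 613, 636, 698, 648 and 403. In MUT3 they were 391, 443, 446, 475 and 479.8. The first 3 WT6 libraries were the highest of all 15, the last 2 lay within the MUT3 range, and in WT10 only the 25 ng/ml library was below the untreated value. The ratio of 25 ng/ml to untreated was 0.376 in WT6, 0.657 in WT10 and 1.23 in MUT3. The slope was -0.35 ± 0.062 in WT6 (limma, adjusted p = 0.00032), -0.13 ± 0.062 in WT10 (limma, adjusted p = 0.167) and 0.056 ± 0.064 in MUT3. The wild type mean differed from MUT3 by -0.30 ± 0.078 (limma, adjusted p = 0.0147). The transcript of 5686 bases is longer than 77.3% of tested genes. Without WT6 at 5 and 25 ng/ml the WT6 slope was -0.058 ± 0.085 (limma, adjusted p = 0.801), whereas the WT10 slope, -0.12 ± 0.036, then passed (limma, adjusted p = 0.0131). That fit kept every WT10 library: the WT10 slope hardly moved, and its SE, estimated over all clones, shrank from 0.062. Over all genes, calls in WT10 went from 2527 to 4915.

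RBL2 (hg19, chr16:53467889-53525560, plus strand), which encodes p130, the family member of resting cells, did not pass in any clone. Its normalized counts ran from 292 to 348 in WT6, from 399 to 445 in WT10 and from 322 to 380.4 in MUT3, with no order by dose, and the clones WT6 and WT10 did not overlap. The slopes were -0.012 ± 0.034 in WT6, 0.018 ± 0.032 in WT10 and -0.010 ± 0.033 in MUT3.

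**Figure D1:**
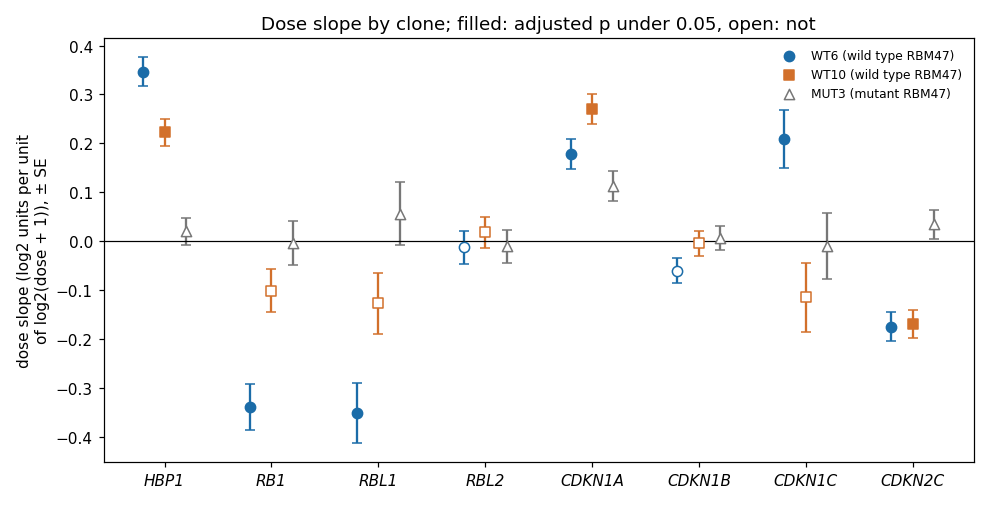
Dose slope (y axis, log2 units per unit of log2(dose + 1)) of the 8 tested genes in WT6 (blue circles), WT10 (orange squares) and MUT3 (grey triangles) from the limma fit, with bars of 1 SE. Filled symbols passed an adjusted p of 0.05 and open ones did not. No MUT3 symbol is filled, HBP1 and CDKN1A are filled above 0 and CDKN2C below 0 in both wild type clones, and RB1, RBL1 and CDKN1C are filled in WT6 alone.

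CDKN1A (hg19, chr6:36644237-36655114, plus strand), which encodes p21, had the highest level per kb of the group in every clone. Its normalized counts in WT6 were 4453, 5173, 5117, 6506 and 7910.0. In WT10 they were 2607, 2587, 2964, 3506 and 5961. In MUT3 they were 1566, 1701, 1815, 1785 and 2296. Every MUT3 library was lower than every WT10 library, and the untreated WT6 library was higher than all but the 25 ng/ml library of WT10. The count at 25 ng/ml was 1.78 times the untreated count in WT6, 2.29 times in WT10 and 1.47 times in MUT3, where the step from 5 to 25 ng/ml made most of the change. The slope was 0.18 ± 0.030 in WT6 (limma, adjusted p = 0.000245), 0.27 ± 0.030 in WT10 (limma, adjusted p = 5.89e-05) and 0.11 ± 0.031 in MUT3 (limma, unadjusted p = 0.00244). With MUT3 fitted alone, the MUT3 slope of 0.11 ± 0.017 passed (limma, adjusted p = 3.22e-06). The wild type mean exceeded MUT3 by 0.11 ± 0.038 (limma, adjusted p = 0.0423) and WT10 exceeded it by 0.16 ± 0.043 (limma, adjusted p = 0.0468). Each of these differences missed the threshold in 8 of 15 alternative fits, among them those without a filter on low values (adjusted p = 0.0513 and 0.0527) and without the 0, 1, 2.5 or 25 ng/ml libraries. Without WT6 at 5 and 25 ng/ml the first was 0.082 (adjusted p = 0.252), and without WT10 at 5 ng/ml the second was 0.16 (adjusted p = 0.0536). Over the alternatives the first ranged from 0.072 to 0.18 (highest adjusted p = 0.984) and the second from 0.090 to 0.21 (highest adjusted p = 1.00). CDKN1A has a transcript of 2267 bases, longer than 26.1% of tested genes, and with length and GC trends removed its WT6 slope was 0.093, against 0.27 in WT10. The WT6 slope was 0.11 ± 0.067 when WT6 at 5 and 25 ng/ml was left out (limma, adjusted p = 0.432). The lncRNA gene DINOL overlaps it on the opposite strand.

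CDKN1B (hg19, chr12:12838432-12875303, plus strand), which encodes p27, passed in no clone. Its normalized counts ran from 457 to 563 in WT6, from 601 to 661 in WT10 and from 613 to 635 in MUT3. The lowest value was that of WT6 at 25 ng/ml, and the 4 other WT6 libraries lay between 542 and 563. The slope was -0.060 ± 0.026 in WT6 (limma, adjusted p = 0.0578), -0.0043 ± 0.025 in WT10 and 0.0071 ± 0.025 in MUT3. With libraries scaled to total reads, the WT6 slope of -0.068 passed (limma, adjusted p = 0.0319).

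CDKN1C (hg19, chr11:2904443-2907005, minus strand), which encodes p57 and is an imprinted gene, had the lowest mean level per kb of the detected members in each clone, although in WT6 it was above RBL2 at 5 ng/ml (71.8 against 63.2 per kb) and at 25 ng/ml (86.2 against 62.1). Its normalized counts in WT6 were 101, 86.5, 75.9, 139 and 167, from 84 to 134 reads. In WT10 they were 89.8, 88.7, 90.8, 73.9 and 63.2. In MUT3 they were 77.5, 97.7, 97.9, 76.3 and 83.8. The 2 highest libraries were WT6 at 5 and 25 ng/ml, and the other 13 ranged from 63.2 to 101. The slope was 0.21 ± 0.059 in WT6 (limma, adjusted p = 0.00762), -0.11 ± 0.070 in WT10 (limma, adjusted p = 0.273) and -0.0093 ± 0.067 in MUT3, and the WT6 slope exceeded that of WT10 by 0.32 ± 0.092 (limma, adjusted p = 0.0346). The transcript of 1936 bases is longer than 19.3% of tested genes. The WT6 slope was 0.075 with length and GC trends removed (limma, adjusted p = 0.249) and -0.22 ± 0.13 without WT6 at 5 and 25 ng/ml (limma, adjusted p = 0.431).

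CDKN2C (hg19, chr1:51426417-51440306, plus strand), which encodes p18 and is the one INK4 gene of the group with reads, fell in both wild type clones. Its normalized counts in WT6 were 1139, 1147, 869, 954 and 653. In WT10 they were 1536, 1502, 1373, 1248 and 901. In MUT3 they were 970.4, 1079, 1095, 1052 and 1123. WT10 declined at every step, and at 25 ng/ml both wild type clones were below every MUT3 library. The ratio of 25 ng/ml to untreated was 0.573 in WT6, 0.587 in WT10 and 1.16 in MUT3. The slope was -0.17 ± 0.030 in WT6 (limma, adjusted p = 0.000285), -0.17 ± 0.029 in WT10 (limma, adjusted p = 0.00128) and 0.034 ± 0.029 in MUT3. The wild type mean differed from MUT3 by -0.21 ± 0.036 (limma, adjusted p = 0.00208) and WT10 alone by -0.20 ± 0.041 (limma, adjusted p = 0.0136). Its transcript of 2904 bases is longer than 38.7% of tested genes, and with length and GC trends removed the slopes were -0.21 in WT6 and -0.15 in WT10. It was -0.20 ± 0.068 in WT6 when the 5 and 25 ng/ml libraries of that clone were left out (limma, adjusted p = 0.153).

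Between clones, the WT10 slope differed from that of MUT3 for 3 of 8 members (HBP1, CDKN1A and CDKN2C), beside 5.62% of all genes. The WT6 slope differed from that of WT10 for 2 of 8 (RB1 and CDKN1C), beside 14.4% of all genes. Neither passed without the WT6 libraries at 5 and 25 ng/ml, a fit in which 6 of all 12644 genes did. For HBP1, the difference between WT6 and WT10 was 0.12 ± 0.040 (limma, adjusted p = 0.0515). For CDKN1A it was -0.091 ± 0.043 (limma, adjusted p = 0.147), and for RBL1 -0.22 ± 0.088 (limma, adjusted p = 0.0893).

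**Figure D2:**
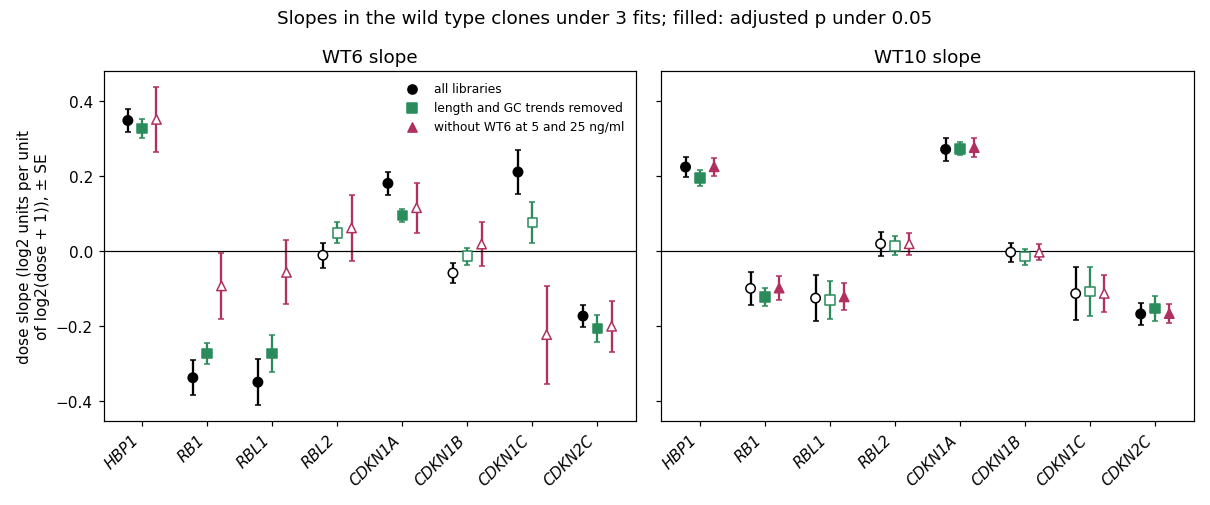
Dose slope (y axis, log2 units per unit of log2(dose + 1), bars of 1 SE) of the 8 tested genes in WT6 (left) and WT10 (right) from all libraries (black circles), after removal of the trends with length and GC (green squares) and without WT6 at 5 and 25 ng/ml (magenta triangles). Filled symbols passed an adjusted p of 0.05. In WT6 the slopes of RB1, RBL1 and CDKN1C lie nearer to 0 or below it without the 2 libraries, HBP1 (0.35) and CDKN2C (-0.20) keep their size, and in WT10 the values of the 3 fits lie close together.

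CDKN2A (hg19, chr9:21967751-21995300, minus strand) and CDKN2B (hg19, chr9:22002902-22009304, minus strand) had 0 reads in each of the 15 libraries, so no difference between clones in their presence was seen. With 95116356 reads on genes over the 5 WT6 libraries, 116213477 over WT10 and 89541342 over MUT3, a count of 0 allows up to 3 reads, which in a single library is 1.19 to 4.09 normalized counts. In the whole table, 17.0% of genes had no read in any library. CDKN2B-AS1, a long noncoding RNA gene that overlaps both on the opposite strand, and MTAP, a ubiquitously used purine salvage gene beside CDKN2A, were also at 0 throughout. The run of genes without a read held 26 genes of the table with a known position, from PTPLAD2 to ELAVL2 over 2827 kb (chr9:20999508-23826335), 23 of them protein coding and 17 of them interferon genes or pseudogenes. Among the genes of the run were KLHL9, a subunit of a ubiquitin ligase, MIR31HG, IFNE, IFNB1 and DMRTA1. The genes on either side had reads in every clone. KIAA1797 had 193 reads in WT6, 352 in WT10 and 237 in MUT3, MLLT3 had 582, 1750 and 1136, and TUSC1 had 818, 1739 and 1400. Whether the genes of the run are absent from the genome or silent was not tested, since RNA alone was measured.

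**Figure D3:**
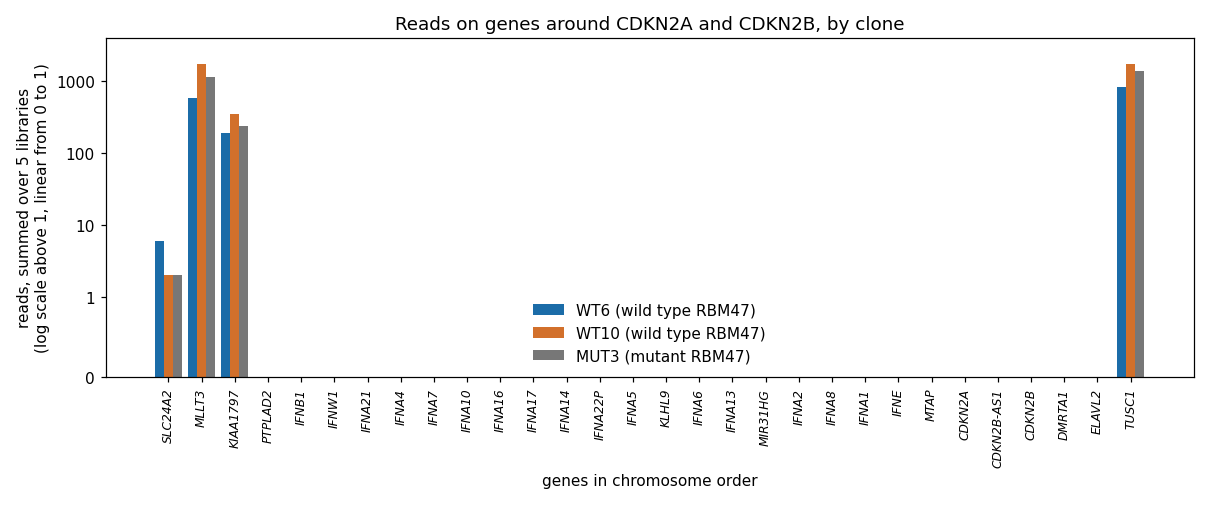
Reads summed over the 5 libraries of each clone (y axis, log scale above 1 and linear from 0 to 1) for the 30 table genes around CDKN2A and CDKN2B in chromosome order (x axis, not to scale), in WT6 (blue), WT10 (orange) and MUT3 (grey). All 26 genes from PTPLAD2 to ELAVL2 show no bar in any clone, and KIAA1797 and TUSC1 on either side show bars in every clone.

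Levels between genes were compared per kb of transcript. In MUT3, the mean normalized count per kb was 808 ± 122 (SD, n = 5 libraries at different doses) for CDKN1A, 366 ± 20.1 for CDKN2C, 220.1 ± 12.8 for RB1, 179.9 ± 7.65 for HBP1, 144 ± 2.16 for CDKN1B, 78.6 ± 6.20 for RBL1, 72.9 ± 5.79 for RBL2 and 44.7 ± 5.45 for CDKN1C. Of neighbours in this order, RBL1 and RBL2 overlapped and the others did not. In untreated WT6, RBL1 (193 per kb) stood above CDKN1B (127) and HBP1 (79.3), which was the third lowest there. In untreated WT10, CDKN1B (152) and HBP1 (148) stood above RBL1 (108).

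Without doxycycline, the fitted level in WT6 differed from the mean of WT10 and MUT3 for 4 of 8 members, beside 64.3% of all genes. CDKN1A was higher in WT6 by 1.24 ± 0.096 on the log2 scale (limma, adjusted p = 2.46e-08) and RBL1 by 1.18 ± 0.19 (limma, adjusted p = 5.21e-05). HBP1 was lower, with a difference of -0.99 ± 0.097 (limma, adjusted p = 3.6e-07), as was RBL2, with -0.27 ± 0.11 (limma, adjusted p = 0.0334), a call lost without 0, 1 or 25 ng/ml (-0.19 and adjusted p = 0.266 without 1 ng/ml). Between WT10 and MUT3, 5 of 8 members differed, beside 28.2% of all genes. RB1 was higher in WT10 by 0.79 ± 0.16 (limma, adjusted p = 0.00187), RBL1 by 0.77 ± 0.23 (limma, adjusted p = 0.02), CDKN2C by 0.69 ± 0.11 (limma, adjusted p = 0.00021) and CDKN1A by 0.56 ± 0.11 (limma, adjusted p = 0.00174), and HBP1 was lower (-0.35 ± 0.10, limma, adjusted p = 0.021). Of these, HBP1 was lost without 1, 2.5 or 25 ng/ml (-0.23 and adjusted p = 0.261 without 1 ng/ml), RBL1 without 0, 1 or 25 ng/ml (0.64 and adjusted p = 0.121 without 25 ng/ml), and CDKN1A without 0 ng/ml (0.37, adjusted p = 0.113). Scaling to total reads moved the median WT6 level difference of all genes from 0.024 to -0.11, and under it the differences of CDKN1B (-0.25) and CDKN2C (-0.25) passed as well. Both were -0.11 as deposited and thus moved in the direction of that shift and by about as much.

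Genes that act with the members were taken from lists. Their counts stand beside 29.2% of all genes that rose and 28.3% that fell in WT6, and 10.2% and 9.83% in WT10. In MUT3, 0 of all 12644 genes passed, so a list without a call there does not differ from the rest of the table. Without WT6 at 5 and 25 ng/ml, no gene of these lists passed in WT6 except 1 of the MuvB list that rose. In that fit 1.03% of all genes rose in WT6 and 0.411% fell. Of 14 E2F target genes, 13 fell in WT6, 8 in WT10 and none in MUT3, none rose, and the median slope was -0.14, -0.095 and -0.0034, beside 0.0053, -0.0027 and 0.0033 over all genes. MYBL2, a transcription factor of the G2/M genes, fell from 6940.5 normalized counts to 3929 in WT6 and from 2973 to 1786 in WT10, and went from 1867 to 1952 in MUT3. MCM2, a subunit of the replicative helicase, fell from 4874 to 2564 in WT6 and from 3650.1 to 2403 in WT10. MCM7, another subunit, fell from 9151 to 5147 in WT6 and from 8199 to 5738 in WT10. Without WT6 at 5 and 25 ng/ml, 10 of the 14 fell in WT10, beside 20.2% of all genes, and their median WT6 slope was -0.11. In WT10, 7 fell by edgeR, beside 8.99% of all genes, and 6 with total read scaling, beside 6.45%. With length and GC trends removed, 13 fell in WT6, beside 31.8%, and 11 in WT10, beside 20.2%. PCNA passed in neither wild type clone.

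Of 10 genes of E2F and DP factors, 5 fell in WT6 and 3 in WT10, and none rose. E2F2, an activating E2F, fell from 591 to 268 in WT6 and from 223 to 118 in WT10. TFDP1, the main DP partner of the E2Fs, fell from 3015 to 1456 in WT6 and from 4082 to 2783 in WT10. Of 6 genes of the MuvB core and FOXM1, the complex that p107 and p130 join and the factor that follows it, 1 rose and 3 fell in WT6, and 1 rose and 1 fell in WT10. FOXM1 fell in both, from 5003 to 2465 in WT6 and from 6043 to 3892 in WT10.

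Of 10 genes of G1 cyclins and CDKs, 9 were tested, of which 1 rose and 5 fell in WT6 and 2 rose and 4 fell in WT10, where 2 fell by edgeR and with total read scaling. CCND3, a D-type cyclin, rose from 6082 to 9069.7 in WT6 and from 5279 to 7325 in WT10. CCNA2, cyclin A, fell from 5747 to 3071 in WT6 and from 4492 to 3092 in WT10. CDC25A, a phosphatase that activates CDK2, fell from 2063 to 1081 in WT6 and from 1266 to 969 in WT10. CCND2 was not tested because of its low level in WT6, and this gene, named after its values were seen, had 7.67 normalized counts in untreated WT6, 18.4 in untreated WT10 and 2412 in untreated MUT3. Of 5 genes of the SCF ligases that degrade p27 and cyclin E, 3 fell in WT6 and 1, CUL1, fell in WT10 as well, where none passed by edgeR or with total read scaling.

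Of 6 genes known as HBP1 targets, 5 were tested, MYCN being below the filter on low values, and 3 fell in WT6 and 2 in WT10. DNMT1, the maintenance DNA methyltransferase that HBP1 is known to repress, fell in both, from 7734 to 3231 in WT6 and from 15261 to 9869 in WT10, and was at 13986 and 14083 in MUT3. H1F0 (histone H1.0), known as a gene that HBP1 activates, fell in WT10, from 9245 to 6169, and went from 5886 to 6031.5 in WT6, where it did not pass. Of a list of 3 further genes with CDKN in their names, CDKN2AIP fell in WT6, and CDKN2D, the fourth INK4 gene, and CDKN3 passed in no clone. CDKN2D ranged over 683 to 852 in the untreated and 25 ng/ml libraries of the 3 clones. In MUT3 none of the listed genes passed, as was so for all 12644 tested genes.

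Likeness of dose pattern was described by Pearson's r over the 15 libraries, each gene being centred on its mean in each clone, and the points share libraries and scaling. Among the genes most like HBP1 were SEPHS2 (r = 0.992), NOV (r = 0.986), SLC50A1 (r = 0.986) and STAMBP (r = 0.985). Among those most like RB1 were TMPO and MYBL1 (r = 0.990 for both), and those most like RBL1 were MLLT4, PARP4 and POLR2M (r from 0.987 to 0.990). MFI2, ZC3H12A and CXCL2 were most like CDKN1A (r from 0.965 to 0.984), ALKBH2, ERI3 and CLP1 most like CDKN1C (r from 0.930 to 0.946) and TUBB, FAM64A and NUP93 most like CDKN2C (r from 0.980 to 0.985). Among the members, HBP1 ran with CDKN1A (r = 0.855) and opposite to CDKN2C (r = -0.907) and RB1 (r = -0.875). RB1 ran with RBL1 (r = 0.894). All these r values include the WT6 libraries that stood apart by mRNA length, and r without them was not computed. Genes that change with dose in the same clone get an r with the sign of their slopes from that alone. Whether the genes are regulated together was not tested.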

How the data were processed

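Per the methods, the authors aligned read pairs to hg19 using STAR. HTSeq 0.5.4 at its defaults then gave counts for each gene, which were divided by DESeq size factors. The deposited values are thus a normalized signal, reads divided by a size factor, for 23368 genes and 5 HTSeq tallies. The annotation and the strand of the libraries are not given in the sources used here, and without strand the reads of a gene and its antisense partner cannot be told apart. Dividing by the smallest value above 0 gave whole reads for 100% of values (tolerance 0.001). Reads that HTSeq assigned to no feature made 56.5% to 59.6% of those tallied and stayed out of all tests, as did ambiguous reads (0.527% to 0.617%). Where the reads without a feature lie was not tested.

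The fit used limma 3.58.1 (R 4.3.3) with precision weights (vooma) on log2(normalized count + 1) of 12644 genes with a mean of at least 10 in each clone, with an intercept and a slope per clone and 9 residual degrees of freedom. Genes passed at a Benjamini-Hochberg adjusted p under 0.05 over all of them. With 1 library per clone and dose, the error is the scatter about each line and not that of replicate cultures, and Poisson intervals and the floor of 3 reads cover counting error only. The scripts were tested on simulated data. Symbols were matched to GENCODE gene models on hg19 (19556 by symbol, 1926 by an older symbol); lengths and GC come from these.

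All 10 members are named. From each list, counts are given with at most 3 genes called in both wild type clones with one sign. These are the genes of largest mean wild type slope among those called. PCNA, CCND2, H1F0, DCN and the list genes with CDKN in their names were added after their values were seen. Likeness ranks 5 genes for HBP1 and 3 for the other members that passed. Some genes of the lists and rankings, and 1 list, are not reported here. The members and lists were chosen with earlier results of these data known. The alternatives were another pseudocount (5), no filter, no weights, edgeR 4.0.16 on recovered reads, total read scaling, removal of length and GC trends, clones fitted alone, 2 other dose codings and leaving out each dose; fits without WT10 at 5 ng/ml and without WT6 at 5 and 25 ng/ml were chosen after seeing the data.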

Additional observations from a re-analysis of the deposited data

Results flagged for a closer look

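Results are listed here where the effect of the dose differed between clones by the limma test of the difference in slope, with Benjamini-Hochberg adjustment over all tested genes. Between the mean of the wild type clones and MUT3 the slope differed for HBP1 (0.26), RB1 (-0.22), RBL1 (-0.30), CDKN1A (0.11) and CDKN2C (-0.21). Between WT10 and MUT3 it differed for HBP1 (0.20), CDKN1A (0.16) and CDKN2C (-0.20). Between WT6 and WT10 it differed for RB1 (-0.24) and CDKN1C (0.32). The last pair rests on the WT6 libraries at 5 and 25 ng/ml, without which the differences were 0.0056 for RB1 and -0.11 for CDKN1C. Neither passed in that fit, beside 6 of all 12644 genes that did. Without these libraries the wild type mean differed from MUT3 for HBP1 and CDKN2C alone, and RB1, RBL1 and CDKN1A did not pass. Both CDKN1A differences missed the threshold in 8 of 15 alternative fits.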

How the results depend on the processing

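Member counts were refitted where an alternative applies: clones fitted alone give slopes within a clone only, and the other dose codings give no untreated level. The WT6 count of 6 was 0 with any doxycycline against none, 0 with the RBM47 count in place of the dose and 0 without WT6 at 5 and 25 ng/ml. The WT10 count of 3 was 0, 0 and 5 under the same settings, and 0 to 5 without each dose in turn, 0 being the fit without 25 ng/ml and 5, with RB1 and RBL1 added, that without 5 ng/ml. The count for the wild type mean against MUT3, 5, was 0, 0 and 2, and 0 to 5 without each dose. That for WT10 against MUT3, 3, was 0 under both other dose codings and 0 to 3 without each dose. That for WT6 against WT10, 2, was 0 in all 3 settings, 1 without WT10 at 5 ng/ml and 0 to 3 without each dose. Where these counts were 0 without a dose, few genes of the table passed. Without 25 ng/ml, 1 gene passed for the wild type mean against MUT3, 0 for WT10 against MUT3 and 7 for WT6 against WT10. Without 1 ng/ml, 0 passed for WT10 against MUT3 and 4 for WT6 against WT10. For WT6 against WT10, 5 passed without 0 ng/ml and 6 without WT6 at 5 and 25 ng/ml. The MUT3 count of 0 became 1 (CDKN1A) with each clone fitted alone, beside 177 of 13317 genes. The counts of level differences ran from 3 to 4 (WT6) and from 3 to 5 (WT10 against MUT3) without each dose. Under the other dose codings hardly any gene of the table passed either: any doxycycline against none called 0 genes in WT6 and 0 in WT10, and the RBM47 count 2 and 89. Signs turned for 3 member values, all without WT6 at 5 and 25 ng/ml: the WT6 slope of CDKN1C (-0.22) and the WT6 minus WT10 differences of CDKN1C (-0.11) and RB1 (0.0056). The cause was not tested. Of the 28 member values that passed, refitted in 411 cases, 314 kept direction and call, 94 kept direction alone and 3 turned. The edgeR test gave the same member counts throughout. Over all genes, total read scaling moved rising and falling calls in WT10 from 1284 and 1243 to 1544 and 816, of WT10 against MUT3 from 336 and 375 to 444 and 152, of the wild type mean against MUT3 from 1271 and 1843 to 1554 and 1432, and of the WT6 level from 4255 and 3877 to 3213 and 4737. Without WT6 at 5 and 25 ng/ml, 182 genes passed in WT6 and 4915 in WT10. WT6 tested alone added neither CDKN2A nor CDKN2B, which are at 0 there. No paired analysis was possible because each condition has 1 library and the labels carry no replicate numbers. CDKN1C, at 61 to 186 reads per library, is the member whose precision depth limits most.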
